A study of Mus musculus with 10 samples.

Results

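The 200 most abundant genes of the Zfp series were examined. They came from 350 rows of the deposited table whose symbol is Zfp followed by a number, not counting Zfp36. The members were the 200 rows with the highest mean count over all libraries, and Zfp36, an RNA-binding protein of another family, was left out. The table lists 17053 genes in all. The last members inside this limit were Zfp382, Zfp39 and Zfp938, with mean counts of 227.9, 224.1 and 224. The first rows outside it were Zfp707, Zfp979 and Zfp235, with 221.2, 220.1 and 216.2. All 200 members passed the filter on low counts, and 12218 genes were tested. Genes outside these 350 rows are called other genes below, and 11900 of them were tested.

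Zfp symbols name mouse zinc finger proteins, most of which carry arrays of the C2H2 finger, a short fold that holds a zinc ion and reads a few bases of DNA. Many also carry a KRAB box, which recruits the co-repressor Trim28 and, through it, the histone methyltransferase Setdb1 and heterochromatin proteins to silence transposable elements and imprinted loci. Others with the same kind of name act elsewhere, on the spindle, on ribosomes, on RNA or as ubiquitin and SUMO ligases. Transcripts of zinc finger regulators are known as a class that is made and degraded quickly.

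The cells were NIH-3T3, an established line of mouse embryonic fibroblasts, labelled wild type and grown in DMEM with newborn calf serum, penicillin and streptomycin in every group. There were 5 groups of 2 libraries, labelled A and B. The untreated group received nothing, the uridine group 800 µM uridine for 2 h, and the other 3 groups 800 µM 4-thiouridine (4sU) over the same time. Living cells build 4sU into new RNA in place of uridine. RNA of the unconverted 4sU group was sequenced without chemistry. In the SLAM group 4sU was modified with iodoacetamide, and in the TUC group with osmium tetroxide and ammonium, so that new RNA is read with U-to-C changes. By its title, the study asked how TUC-seq and SLAM-seq compare in quantification bias. The labels do not say whether A and B were separate cultures, so p-values measure the spread between these libraries, which may be technical, and all groups come from 1 cell line.

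The libraries held 27094222 to 33785682 counts, of which the members took 0.473% to 0.616%. All 12 fibroblast markers passed the filter, with a summed level of 17630 to 25870 CPM (counts scaled to library size with TMM factors) per library. Epithelial markers summed to 0.074 to 0.332 CPM and endothelial markers to 0.355 to 1.23 CPM. Macrophage markers summed to 7.62 to 15.6 CPM and muscle or fat markers to 5.72 to 9.20 CPM. The letters marked a shared source of variation: the A minus B differences correlated between every one of 10 pairs of groups (r from 0.584 to 0.69 over all genes, 0.656 to 0.764 over the members). Counts were therefore fitted with edgeR's quasi-likelihood test on groups alone and again with the letter as a block. In what follows, a gene is called where its Benjamini-Hochberg adjusted p is under 0.05, and "rose" or "fell" is used of genes called with the block unless stated. Changes are log2 fold changes with their standard error.

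Promoters of 164 members were found in a RefSeq table (mouse build GRCm38.p6, 250 bases before to 50 bases after a start), which held 205 promoters of members and 32851 in all. Those below, 1 per line and 5′ to 3′, belong to members at the ends of the measurements described next. Zfp141 (chr7:42505704-42506003, minus strand) and Zfp597 (chr16:3872325-3872624, minus strand) had RNA estimated as fully new after 2 h of labelling. Zfp106 (chr2:120563810-120564109, minus strand) had mostly old RNA. Zfp871 (chr17:32788238-32788537, minus strand, the first of 2 promoters listed for it) showed the largest fall in counts after conversion. Capitals mark matches, on either strand, to a CCAAT box (CCAAT), a GC box (GGGCGG), an ETS site (CCGGAAG), an E-box (CACGTG) and an NRF1 site (GCGCA followed directly by its reverse complement). In Zfp106 the CCAAT box was matched on both strands with overlap.
Zfp141: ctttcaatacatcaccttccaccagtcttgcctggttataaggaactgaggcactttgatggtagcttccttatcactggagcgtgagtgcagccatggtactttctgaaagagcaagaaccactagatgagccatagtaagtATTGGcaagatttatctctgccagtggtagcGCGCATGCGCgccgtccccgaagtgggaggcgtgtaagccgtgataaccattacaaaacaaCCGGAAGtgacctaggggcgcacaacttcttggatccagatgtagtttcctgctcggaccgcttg
Zfp597: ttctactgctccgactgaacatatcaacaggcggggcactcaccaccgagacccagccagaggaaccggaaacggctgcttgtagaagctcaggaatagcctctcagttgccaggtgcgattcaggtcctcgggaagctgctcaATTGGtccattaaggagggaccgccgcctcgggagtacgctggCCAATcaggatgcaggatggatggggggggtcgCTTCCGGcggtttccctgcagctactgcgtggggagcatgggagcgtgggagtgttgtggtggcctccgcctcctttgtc
Zfp106: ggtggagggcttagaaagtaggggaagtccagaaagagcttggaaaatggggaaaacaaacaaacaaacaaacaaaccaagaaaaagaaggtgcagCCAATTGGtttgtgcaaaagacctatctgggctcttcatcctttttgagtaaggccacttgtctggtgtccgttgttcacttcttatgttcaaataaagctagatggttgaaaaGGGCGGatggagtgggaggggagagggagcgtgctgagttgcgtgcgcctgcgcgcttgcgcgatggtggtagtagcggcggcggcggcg
Zfp871: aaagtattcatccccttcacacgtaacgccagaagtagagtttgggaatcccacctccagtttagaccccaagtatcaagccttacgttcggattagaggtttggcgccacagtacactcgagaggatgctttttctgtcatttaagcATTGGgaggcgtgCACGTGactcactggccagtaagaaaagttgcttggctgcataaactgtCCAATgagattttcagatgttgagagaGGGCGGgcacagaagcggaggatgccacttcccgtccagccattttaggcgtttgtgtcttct

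The member promoters were rich in CG dinucleotides, with a median of 17 in 300 bases against 7 over all promoters. A GC box was found in 49.8% of member promoters and 35.7% of all promoters, and a CCAAT box in 45.4% and 37.4%. The ETS letters were found in 19.5% and 8.86%, and the NRF1 letters in 4.39% and 0.971%. A TATA box (TATAAA) was less frequent among the members, at 8.29% against 13.6%. The remaining letters searched were the E-box (7.32% and 7.15%), a CRE (TGACGTCA, 2.93% and 1.79%), a THAP11 and ZNF143 site (ACTACAA, 4.88% and 3.24%) and a BANP site (TCTCG followed by its reverse complement, 0.488% and 0.466%). These are matches of letters on both strands, which can overlap, and not measured binding. The members were chosen for high counts, while the background held all promoters, whether or not their genes were expressed in these cells. Whether the members differ in these letters from other expressed genes was not tested.

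RNA of most Zfp genes was estimated as almost wholly new after the 2 h of labelling. The measure is the NTR, or new-to-total RNA ratio, a deposited estimate of how much of a gene's RNA was made in that time, from 0 (all old) to 1 (all new). The median NTR of the 200 members was 0.937 in SLAM A, 0.939 in SLAM B, 0.935 in TUC A and 0.939 in TUC B. Over 9979 other genes with a mean count of at least 100 it was 0.511, 0.603, 0.533 and 0.619 in the same libraries. The members' SLAM mean ran from 0.322 to 1, with quartiles of 0.848 and 0.977. If synthesis and decay were constant and labelling immediate, the members' median would correspond to a half-life of 0.497 h, against 1.71 h for the median of other genes.

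An NTR of 0.9 or more was reached by 127 of the 200 members with SLAM and by 135 with TUC, which is 63.5% and 67.5%. Among other genes the shares were 18.6% and 19.2%. Only 8 members had a SLAM mean under 0.5. In the unconverted 4sU libraries the members' median was 0.0256 and 0.0227, and in the uridine libraries 0.0157 and 0.0113, which is the background of this measure.

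The distance from other genes was also seen within bins of gene length. The members were 1096 to 13215 bases long in the deposited table, with a median of 3929. In 4 length bins cut at the members' quartiles, the members' median SLAM NTR was 0.894, 0.937, 0.949 and 0.951 from short to long. Other genes in the same bins had 0.447, 0.581, 0.659 and 0.716. In the shortest bin the members' lower quartile, 0.749, lay above the upper quartile of other genes, 0.733, and so it did in the next bin (0.87 against 0.848). In the longest bin these quartiles were 0.895 and 0.906. When other genes were matched on length and mean count together, their median was 0.664 with SLAM and 0.683 with TUC, against 0.926 and 0.921 for the members. These are descriptions over genes, which are not replicates, and no test was made.

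**Figure D1:**
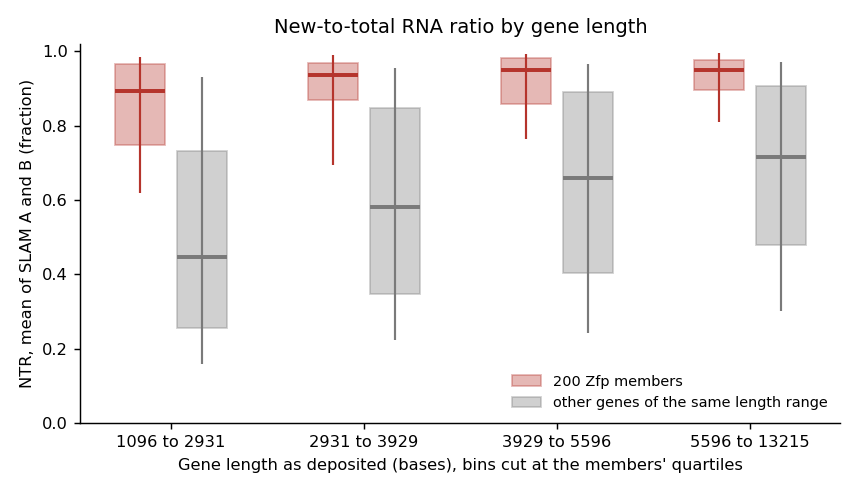
NTR (fraction, mean of both SLAM libraries) of the 200 Zfp members in red and of other genes in grey, in 4 bins of deposited gene length in bases. Thick lines are medians, boxes quartiles and thin lines the 10th to 90th percentile; the members' medians lie at 0.894 to 0.951 and those of other genes at 0.447 to 0.716.

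NTR cannot exceed 1, and most members lie close to that limit. NTR in B exceeded that in A by a median of 0.006 for the members with SLAM and 0.005 with TUC. Over other genes the median excess was 0.05 and 0.048, and 8534 of 9979 were higher in SLAM B. Of the 200 members, 23 had an NTR of exactly 1 in at least 1 SLAM library.

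The 8 members with the lowest NTR, ranked by the SLAM mean among members with a mean count of at least 200, were Zfp580, Zfp106, Zfp523, Zfp692, Zfp277, Zfp326, Zfp949 and Zfp219, from 0.322 to 0.487. Zfp106, an RNA-binding zinc finger protein, had an NTR of 0.289 and 0.372 in SLAM A and B and of 0.313 and 0.383 in TUC A and B. Zfp580, the shortest of the 200, had 0.251 and 0.394 with SLAM and 0.206 and 0.399 with TUC. In both genes B exceeded A under either chemistry, and the SLAM and TUC ranges overlapped. Zfp326, a splicing factor that acts with elongating RNA polymerase, had 0.403 and 0.472 with SLAM and 0.426 and 0.56 with TUC. Zfp949 alone of the 8 had a lower value in B with TUC, 0.424 against 0.543 in A. The half-lives computed as above were 3.57 h for Zfp580 and 3.45 h for Zfp106.

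The 8 highest were Zfp141, Zfp9, Zfp398, Zfp472, Zfp597, Zfp292, Zfp948 and Zfp52, with SLAM means of 0.998 to 1. Zfp597, whose promoter is shown above, had 1 in both SLAM libraries and 0.994 and 0.98 with TUC. Zfp141 had 1 and 1 with SLAM and 0.994 and 0.992 with TUC. Zfp292 had 1 and 0.996 with SLAM and 0.992 and 0.991 with TUC. All 3 were thus at 0.98 or more in every converted library.

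**Figure D2:**
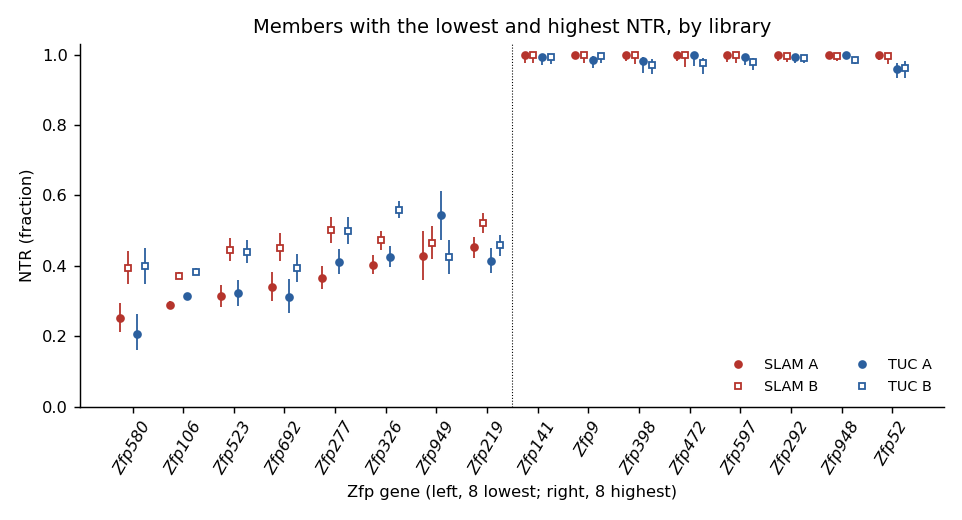
NTR (fraction) in the 2 SLAM and 2 TUC libraries for the 8 members with the lowest and the 8 with the highest SLAM mean. Points are the deposited estimates and bars run from the 0.05 to the 0.95 quantile given with them; Zfp580 is at 0.206 to 0.399, and the 8 genes on the right lie at 0.958 or above.

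Most of the abundant members had an NTR below the group's median. The 8 with the highest mean counts were Zfp207, Zfp106, Zfp91, Zfp664, Zfp706, Zfp740, Zfp598 and Zfp451. Per kilobase of length, Zfp207, a microtubule-binding protein of the spindle and kinetochore, stood at 105 CPM per kb, and the median of the 200 members was 4.94. Its NTR was 0.683 and 0.768 with SLAM and 0.708 and 0.777 with TUC. Zfp598, a ubiquitin ligase of collided ribosomes, had 0.622 and 0.781 with SLAM. Zfp91, a ubiquitin ligase, had 0.812 and 0.826, and Zfp451, a SUMO ligase and the exception among the 8, 0.943 and 0.96. Across the 200 members, mean count and SLAM NTR had a Spearman correlation of -0.07, as a description over genes.

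Position in the genome went with the ratio. By the RefSeq gene order, 95 members had another protein-coding Zfp gene as a direct neighbour, and 105 did not. The median SLAM NTR was 0.959 with such a neighbour and 0.912 without, and 73 of 95 and 55 of 105 rounded to 0.9 or more. The neighboured genes also had lower mean counts, with medians of 481.4 and 733.8. Whether abundance had a part in this was not tested.

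Between the chemistries, the members' NTR had a median TUC minus SLAM difference of -0.0019, with most members close to the upper limit of 1 under both. Both TUC libraries lay below both SLAM libraries for 37 members and above them for 26. The background over 10232 genes was 5.23% below and 9.08% above, against 18.5% and 13% of the members. The median excess of B over A was 0.05 (SLAM) and 0.048 (TUC) in other genes and 0.006 and 0.005 in the members. A wider gap between letters leaves less room for separate groups, and its part in these shares was not tested. With limma on the log2 odds of NTR and Benjamini-Hochberg adjustment, 2 members were called, both lower with TUC, where 0.283% of all genes were called. Zfp398 had 1 and 1 with SLAM and 0.981 and 0.971 with TUC (adjusted p = 0.00643), and Zfp141 differed by -0.007 (adjusted p = 0.0433). Both SLAM values of each gene were at 1 and were held at the upper limit of the scale, so that they had no spread. With the letter as a block, limma called neither (adjusted p = 0.576 for both). An unadjusted p under 0.05 was then found for 33 of 200 members and 760 of 9979 other genes. Without the block these numbers were 21 and 220.

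Uridine alone did not change any member detectably. The edgeR quasi-likelihood fit called 0 of 200 members without and with the block, against 0% and 0.00818% of all genes. The members with an unadjusted p under 0.05 numbered 2 and 9. DESeq2 called none either. The members' median change was -0.004.

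Unconverted 4sU was compared with the untreated cells to show what labelling itself does to measured counts. Without the block edgeR called 0 members, where 0.164% of all genes were called, and an unadjusted p under 0.05 was found for 10. With the block 13 members rose and 14 fell, where 6.97% of all genes rose and 12.9% fell. These shares, 6.5% and 7%, put the members near the background for increases and below it for decreases. With counts scaled by library totals in place of TMM, the blocked fit gave 6 higher and 12 lower members, and it called 17.8% of all genes. In this bulk RNA, fewer cells with a transcript and less of it per cell cannot be told apart.

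Zfp367 rose from 46.2 and 41.9 CPM in untreated A and B, and 43.7 and 45.1 with uridine, to 58.9 and 58 with unconverted 4sU. Both unconverted 4sU libraries were above every untreated and uridine library. The change was 0.41 ± 0.07 (edgeR with the block, adjusted p = 0.000477; without it, 0.139). Zfp958 rose from 11.4 and 11.8 to 15.7 and 20.3 CPM, a change of 0.63 ± 0.11 (adjusted p = 0.000566 with the block in edgeR, 0.138 without), and Zfp930 from 15.4 and 15.9 to 19.8 and 22.7 CPM. The most abundant member, Zfp207, rose from 304 and 284 to 361 and 361 CPM, by 0.30 ± 0.05. The other called increases with separate groups and the largest sizes were Zfp809, which silences retroviral DNA (0.32), Zfp120 (0.32), Zfp617 (0.30) and Zfp74 (0.27).

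Among the decreases, Zfp330, a nucleolar protein, fell from 43.7 and 40.2 CPM to 32.6 and 33, a change of -0.35 ± 0.06 (edgeR with the block, adjusted p = 0.00105; without it, 0.155). Zfp943, Zfp944 and Zfp945 changed by -0.38, -0.40 and -0.46. Zfp638, an RNA-binding protein linked to silencing, changed by -0.29, and Zfp236, Zfp532 and Zfp213 by -0.30, -0.27 and -0.25. The genes named for the size of their change, here and in the later comparisons, were chosen from called members whose groups did not overlap, so that their separation is no finding. With 1 compared library left out, which leaves 1 library in a group, fewer members and fewer of all genes were called each time. The calls of Zfp367, Zfp330, Zfp930 and Zfp958 were kept in every such fit, and no sign changed.

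The comparison with uridine shares the 4sU libraries. Without the block edgeR called 0 members (0.254% of all genes), while 16 had an unadjusted p under 0.05. Under the blocked fit 20 rose and 10 fell, where 6.48% and 13.3% of all genes did so. With library totals the blocked fit gave 12 higher and 9 lower, and it called 18% of all genes. Zfp958 changed by 0.64 and Zfp367 by 0.39, followed by Zfp846 (0.40), Zfp930 (0.38), Zfp41 (0.37), Zfp52 (0.35), Zfp952 (0.34) and Zfp1 (0.32). Zfp943 changed by -0.52, Zfp330 by -0.48, Zfp944 by -0.46, Zfp945 by -0.44 and Zfp638 by -0.37. Zfp213, Zfp532 and Zfp236 changed by -0.31, -0.27 and -0.25. With 1 compared library left out, fewer members and fewer of all genes were again called each time. The calls of Zfp367, Zfp330 and Zfp958 were kept each time.

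The long members differed most from other genes of their length under 4sU. In the longest bin, 5597 to 13215 bases, the members' median change from untreated was -0.007 and that of other genes -0.136. With the block, 18% of these members and 32.2% of the other genes fell. Against uridine the medians in that bin were 0.01 and -0.115, and 6% and 30.3% fell. In the shortest bin the medians from untreated were alike, at 0.084 and 0.076. Weighted over the 4 bins, the members stood above other genes of their length by 0.07 from untreated (SD between letters 0.04) and by 0.07 from uridine (SD 0.001).

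With SLAM chemistry the counts of 97 of the 200 members changed. Without the block edgeR called 1 member, Zfp414, where 0.344% of all genes were called, and 51 had an unadjusted p under 0.05. Under the blocked fit 31 members rose and 66 fell against unconverted 4sU, where 20% of all genes rose and 21.6% fell. The members' shares were 15.5% and 33%, and their median change was -0.13 against 0.004 for other genes. All 97 kept their sign and 54 their call when each compared library was left out in turn.

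Zfp871 had 25.7 and 31.2 CPM in untreated cells, 22.7 and 35.2 with uridine and 25.1 and 39.8 with unconverted 4sU. It had 8.03 and 18.6 CPM with SLAM and 13.5 and 16.4 with TUC. Both converted groups lay below all 6 unconverted libraries. The SLAM change was -1.30 ± 0.14 (edgeR with the block, adjusted p = 7.94e-06; without it, -1.28 ± 0.40, adjusted p = 0.156). Nearly all of its RNA was estimated as new (1 and 0.971 with SLAM).

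Zfp445, which with Zfp57 maintains genomic imprints, fell from 64.1 and 83.8 CPM with unconverted 4sU to 37.9 and 58.9 with SLAM. The A and B values each fell, and the change was -0.62 ± 0.07 (edgeR with the block, adjusted p = 8.95e-06; without it, 0.256). Zfp462, 10465 bases long in the table, fell from 32.2 and 43 to 18.2 and 28.5 CPM, a change of -0.69 ± 0.10. Zfp329, Zfp26, Zfp933, Zfp407 and Zfp866 changed by -0.79, -0.68, -0.60, -0.60 and -0.57. Zfp57 itself was not called (0.08 ± 0.06, adjusted p = 0.316 in edgeR with the block). The transcription factors Zfp281 and Zfp148 changed by -0.53 and -0.43; these 3 genes were named after their values were seen.

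Of the 31 members that rose with SLAM, Zfp414 was the only one called without the block as well (0.64 ± 0.10, adjusted p = 0.0463 in edgeR). It had 19.7 and 20.2 CPM in untreated cells, 21.1 and 20.8 with unconverted 4sU, 34.7 and 30.8 with SLAM and 23.2 and 25.2 with TUC. Both SLAM libraries stood above all the others. Zfp580 rose from 6.33 and 7.08 to 12.3 and 10.8 CPM, by 0.78 ± 0.12, and Zfp52 from 20.7 and 21.2 to 36.8 and 33.3, by 0.74 ± 0.10. Zfp580 was among the lowest and Zfp52 among the highest of the 200 in NTR. Zfp869, Zfp219, Zfp362, Zfp637 and Zfp524 changed by 0.76, 0.52, 0.52, 0.42 and 0.40.

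**Figure D3:**
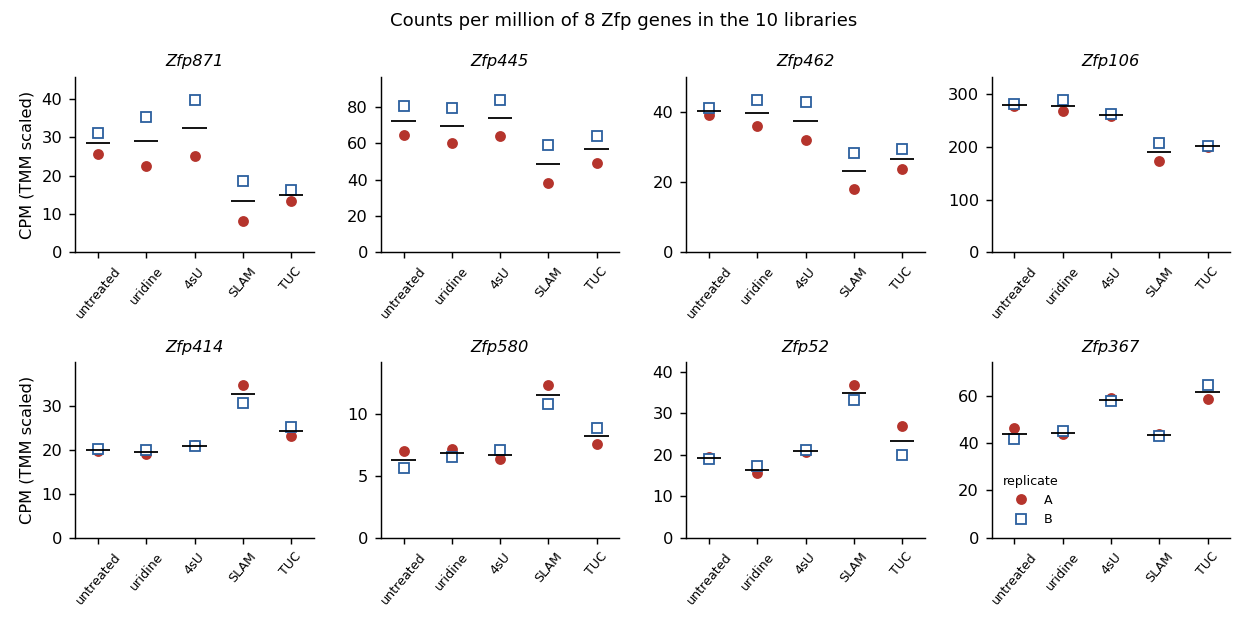
CPM (TMM scaled) of 8 Zfp genes in the 10 libraries; filled circles are replicate A, open squares replicate B and lines the mean of both. Zfp871, Zfp445, Zfp462 and Zfp106 are lowest in the converted groups, Zfp414, Zfp580 and Zfp52 are highest in SLAM, and Zfp367 is at 43.1 and 44 CPM in SLAM against 58 to 64.5 in unconverted 4sU and TUC.

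TUC chemistry gave fewer calls and almost only decreases. Without the block edgeR called 0 members and 0% of all genes, and 19 members had an unadjusted p under 0.05. Under the blocked fit 3 members rose and 39 fell, where 11.6% of all genes rose and 14.2% fell. The shares of the members were 1.5% and 19.5%. The 3 that rose were Zfp637 (14.2 and 12.2 CPM with unconverted 4sU, 18.5 and 16.3 with TUC), Zfp1 (9.07 and 9.04, 11.6 and 11.3) and Zfp706 (117 and 119, 133 and 136).

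Zfp871 again changed most, by -1.11 ± 0.14 (edgeR with the block, adjusted p = 0.00028; without it, 0.704). Zfp608, Zfp526, Zfp329 and Zfp609 changed by -0.59, -0.57, -0.57 and -0.52. Zfp292, among the highest in NTR, fell from 36.5 and 46.8 to 25.5 and 33.6 CPM, a change of -0.49 ± 0.10, and Zfp462 and Zfp809 changed by -0.49 and -0.48. With each compared library left out in turn, fewer members were called, and the calls of Zfp106, Zfp871 and Zfp637 were kept each time. Zfp106, with mostly old RNA, had 259 and 262 CPM with unconverted 4sU, 174 and 207 with SLAM and 200 and 201 with TUC. Both its changes, -0.46 ± 0.06 and -0.38 ± 0.06, were called with the block.

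The SLAM and TUC comparisons share the unconverted 4sU libraries. A call in only 1 of them does not show a difference, which the direct comparison below tests.

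Both changes went with length to about the same degree in the members as in other genes. From the shortest to the longest bin the members' median SLAM change was 0.08, -0.07, -0.17 and -0.31, and that of other genes 0.14, 0.01, -0.09 and -0.26. For TUC the members had 0.05, -0.04, -0.12 and -0.23 and other genes 0.13, -0.002, -0.10 and -0.25. In the longest bin 64% of the members and 58.9% of other genes fell with SLAM, and 46% and 54.9% with TUC. The Spearman correlation of length with the SLAM change was -0.51 over 200 members and -0.51 over 11900 other genes, and with the TUC change -0.61 and -0.64, as descriptions over genes. Weighted over the 4 bins, the members stood below other genes of their length by -0.065 with SLAM (SD between letters 0.037) and by -0.031 with TUC (SD 0.02). These SDs too rest on 1 value per letter.

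That SLAM difference had the opposite sign among members with whole counts. Counts that are not whole can come from reads divided between genes, and 18 of the 200 members had whole counts in all libraries (9%, against 17.1% of other genes tested). For these 18 the difference from other genes of their length was 0.121 with SLAM and -0.002 with TUC. Only the members were limited to whole counts, and the other genes were not, so the sets are unlike in this respect. The part of shared reads in the changes was not tested.

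**Figure D4:**
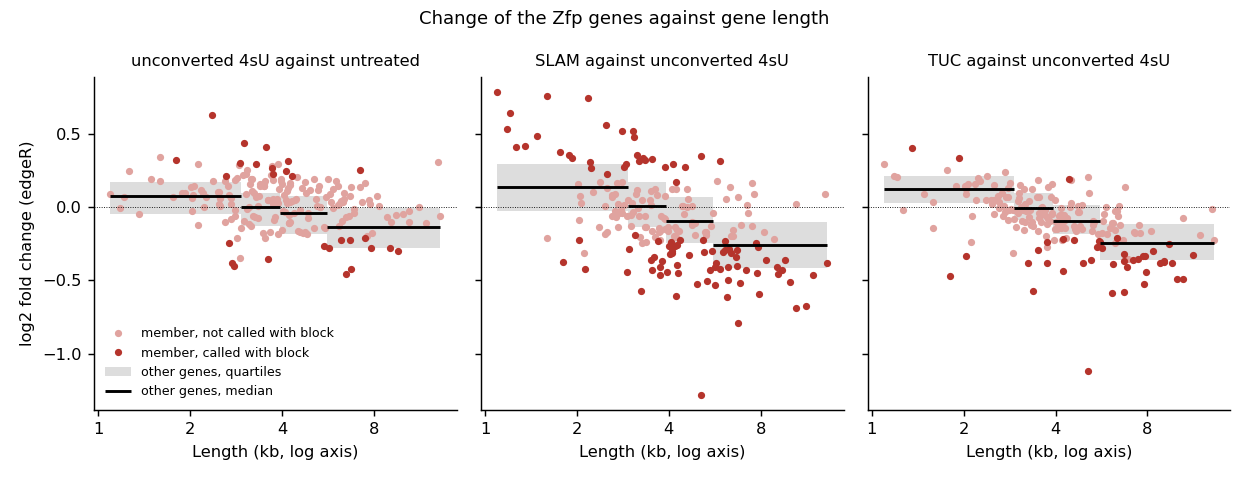
Log2 fold change (edgeR without the block) of each of the 200 members against deposited length in kb on a log axis, for unconverted 4sU against untreated, SLAM against unconverted 4sU and TUC against unconverted 4sU. Dark red points were called with the block; black lines and grey bands are the median and quartiles of other genes per length bin, and in the longest bin the members' median is -0.007 with 4sU, -0.31 with SLAM and -0.23 with TUC.

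In a split of all genes with an NTR into 5 equal bins, 130 of the 200 members were in the bin of highest NTR (above 0.897), 48 in the next and 0 in the lowest. In the highest bin the members' median SLAM change was -0.19 and that of other genes -0.15. With TUC both had -0.10. Under unconverted 4sU the members of that bin had a median change from untreated of 0.07, and the other genes -0.006.

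Direct comparison of the chemistries, TUC against SLAM, gave 0 calls in edgeR without the block among the members and 0% among all genes, with 25 members at an unadjusted p under 0.05. Under the blocked fit 19 members were higher with TUC and 23 lower, where 10% and 10.1% of all genes were, so that the members' shares of 9.5% and 11.5% lay near the background. Zfp367 had 44 and 43.1 CPM with SLAM and 58.5 and 64.5 with TUC. Its SLAM values lay within the untreated range and its TUC values near or above the unconverted 4sU values; the difference was 0.50 ± 0.07 (edgeR with the block, adjusted p = 0.000169; without it, 0.22). Zfp938, Zfp597, Zfp330, Zfp697, Zfp770, Zfp449 and Zfp24 were higher with TUC by 0.29 to 0.36.

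On the other side, Zfp869 had 13.5 and 18.7 CPM with SLAM and 10.3 and 9.24 with TUC, a difference of -0.73 ± 0.12 (edgeR with the block, adjusted p = 0.000512; without it, 0.28). Zfp52, Zfp362 and Zfp703 differed by -0.59, -0.54 and -0.51, and Zfp580, Zfp414, Zfp219 and Zfp777 by -0.48, -0.43, -0.43 and -0.42. Zfp598, the ribosome-linked ubiquitin ligase, had 72.6 and 75.7 CPM with unconverted 4sU, 89.3 and 97.6 with SLAM and 72.6 and 73.9 with TUC. With each compared library left out in turn, the number of called members fell in some fits and rose in another. Most of the 42 calls were lost in at least 1 such fit.

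The silencing partners of KRAB proteins had lower ratios than the zinc finger genes. Of a list of co-repressors, heterochromatin proteins and histone methyltransferases, 33 were in the table and tested, with a median SLAM NTR of 0.611 (quartiles 0.41 and 0.901). Other genes with a mean count of at least 100 had a median of 0.5565, so the partners were not low beside them. Trim28 had 0.611 and Setdb1 0.876. Without the block edgeR called none of the 33 in any comparison, with 6 of them at an unadjusted p under 0.05 for 4sU against untreated, 11 for SLAM and 3 for TUC. Under the blocked fit, 10 of 33 fell and 0 rose with unconverted 4sU against untreated, where 12.9% of all genes fell and 6.97% rose. The falls were led by Fam208a of the HUSH silencing complex (-0.91), Morc2a (-0.56), Smarcad1 (-0.42) and Ehmt1 (-0.41). Their lengths in the deposited table are 7590, 5085, 5168 and 5953 bases, and the list was not matched on length. From the shortest to the longest of the 4 length bins, 4.09%, 11.7%, 18.5% and 32.2% of other genes fell in this comparison. Morc2a and Smarcad1 lie in the bin of 18.5%, and Fam208a and Ehmt1 in the bin of 32.2%. The part of length in the partners' falls was not tested.

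Setdb1 had 87.7 and 94 CPM in untreated cells and 63 and 78.2 with unconverted 4sU, a change of -0.37 ± 0.07 (edgeR with the block, adjusted p = 0.00156; without it, 0.605). Trim28 had 419 and 392 CPM in untreated cells and 453 and 419 with unconverted 4sU and was called in no comparison. With SLAM, 6 of the 33 rose, led by Mta1 (0.48), Gatad2a (0.35), Mbd3 (0.24) and Ehmt2 (0.22). Another 15 fell, led by Atrx (-0.72), Fam208a (-0.52), Cbx5 (-0.46) and Morc3 (-0.31). Of all genes, 20% rose and 21.6% fell with SLAM. From the shortest to the longest of the 4 length bins, 5.15%, 15.4%, 29.9% and 58.9% of other genes fell with SLAM. The partners were not matched on length here either. With TUC, 1 of the 33 rose and 6 fell, where 11.6% and 14.2% of all genes did.

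Other families of C2H2 genes resembled the Zfp genes in NTR. Of 68 genes named Zbtb, Zkscan, Zscan or Zfhx, 49 had an NTR, with a median of 0.95, and 56 were tested. Without the block edgeR called none, and 10 had an unadjusted p under 0.05 for SLAM. Under the blocked fit 5 rose and 2 fell with unconverted 4sU against untreated, 3 rose and 21 fell with SLAM, and 2 rose and 11 fell with TUC. Over all genes the shares that rose and fell were 6.97% and 12.9% with unconverted 4sU, 20% and 21.6% with SLAM, and 11.6% and 14.2% with TUC. Their median SLAM change was -0.13, the value of the Zfp members, and their median TUC change -0.11.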

How the data were processed

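The authors deposited 1 table of genes by libraries. Its estimated counts (expected counts, many not whole, per the file headers named read counts) were rounded for the count models, and its fraction columns hold the deposited NTR (the MAP estimate with bounds at quantiles 0.05 and 0.95) for 8 libraries. Gene length is the table's own column. The submitters' processing notes name cutadapt, Bowtie2 2.3.0 and STAR 2.7.10b. Genome build, counter, strand setting and NTR software: not given in the sources used here. Another 24 columns (means and beta parameters per library) were not used.

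Counts of all 10 libraries were fitted in 1 model with edgeR 4.0.16 (R 4.3.3; filterByExpr, TMM, quasi-likelihood), on groups alone and with the replicate letter as a block. NTR was tested with limma 3.58.1 on log2 odds, held at least 0.001 from 0 and 1, for genes with a mean of 100 counts or more. P-values were adjusted over all genes tested. Libraries differed by more than sampling noise. Alternatives were DESeq2 1.42.0, other scalings and filters, other member sets and leaving out libraries. The fits were tested on simulated data. The members and gene lists were chosen with earlier results of these data known.

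Genes named were, per comparison and fit, up to 8 called members with separate groups in each direction, the 8 highest and lowest in NTR, the 8 most abundant, 3 on each side of the limit and up to 4 called partners each way. Classes of the Zfp proteins by finger number and KRAB box were planned and are not analysed here. Symbols that share reads with near-identical copies are uncertain.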

Additional observations from a re-analysis of the deposited data

How the results depend on the processing

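Groups of 2 libraries limit every test, and the calls rest on the replicate block. With the block, the counts of called members rose from 0 to 27 (4sU against untreated), 0 to 30 (against uridine), 1 to 97 (SLAM), 0 to 42 (TUC) and 0 to 42 (TUC against SLAM), and the 2 NTR calls fell to 0. It left the members' count for uridine against untreated at 0. DESeq2 without it gave 4, 3 and 16 members (4sU against untreated, against uridine, SLAM), where it called 1.97%, 2.28% and 5.72% of all genes. For TUC against SLAM too it called fewer members than edgeR with the block. The SLAM call of Zfp414 was lost, to 0, with library totals, with a mean of 100 counts or more, and without any 1 compared library (range 0 to 0). Zfp414 is not among the whole-count members, of which 0 were called. Alternatives to the blocked fit were chosen after the data were seen. DESeq2 with the block gave 10 (4sU against untreated) and 18 (against uridine), where it called 15.9% and 15.2% of all genes. The blocked fits with 1 library left out, whose member counts follow, leave 1 library in a group. In them fewer of all genes were called each time for 4sU against untreated, against uridine and for TUC. For TUC against SLAM the share of all genes called fell without either TUC library and rose without either SLAM library. Leaving out 1 library with the block gave 6 to 17 members for 4sU against untreated, 4 to 10 against uridine, 7 to 21 for TUC and 14 to 61 for TUC against SLAM.

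The members' change minus that of other genes of similar length, with whole-count members only, was 0.023 (4sU against untreated), 0.061 (against uridine), -0.002 (TUC) and, with the sign turned, 0.121 (SLAM, from -0.065) and -0.052 (TUC against SLAM, from 0.046). The cause was not tested, this set has 18 genes, and the other genes were not limited to whole counts. Against uridine it was 0.068 with 1 length bin, 0.083 with length and count bins, 0.08 with all tested rows of the Zfp pattern and 0.076 to 0.077 without a replicate. The SD of 0.001 beside these rests on 1 value per letter and does not measure precision. The members' median NTR, 0.933 with SLAM and 0.935 with TUC over the 4 bins, was 0.942 and 0.943 with 1 bin, 0.926 and 0.921 with length and count bins and 0.887 and 0.883 with whole counts. With SLAM it was 0.937 with all rows of the pattern at a mean of 100 counts or more and 0.932 to 0.934 with 1 replicate left out. Other genes, at 0.601 and 0.618, had 0.664 and 0.683 with length and count bins. NTR calls between chemistries numbered 4 at a mean of 200 counts or more, 0 on the log2(NTR + 0.01) scale and 11 to 30 without 1 library. The NTR test called 0.283% of all genes in its main form, 0.358% at a mean of 200 counts or more and 0% on the log2(NTR + 0.01) scale. Without 1 library, which leaves 1 library in a group, the share of all genes called rose each time as well. Of all alternatives tried, 141 stayed within a set tolerance of their result, 57 moved beyond it and 2 reversed the sign. The tolerance was wide for numbers of called members. For 4sU against untreated with the block, 18 members with library totals beside 27 with TMM counted as within it. Results of 0 that stayed at 0 were counted as within it too. The alternative finger pattern for protein classes was not run.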
